A study of Mus musculus with 16 samples.

Results

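Genes for the enzymes that add or remove histone methyl groups and for those that remove histone acetyl groups were examined in nuclear RNA from mouse embryonic stem cells (ESCs). Members were the genes whose symbols begin with Kmt, Kdm or Setd, with Hdac or Sirt, or with Prmt, apart from Kdm2b. Of 19338 genes measured, 59 were members, or 0.305%. The entry with the highest mean stood for a gene with more than 1 entry, which applied to 3 members.

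The study addressed how the Polycomb complexes PRC1 and PRC2 shape chromatin and transcription, and it profiled 4 groups of 4 libraries. Wild-type cells were the untreated Ring1a-/-;Ring1bfl/fl line, and PRC1-null cells were the same line after 72 h in 800 nM 4-hydroxytamoxifen, which removes RING1B. PRC2-null cells were an untreated Eed-/-;Ring1a-/-;Ring1bfl/fl line made with CRISPR/Cas9, from a number of clones that the sources used here do not state. PRC1/2-null cells were that line after the same treatment. All groups, wild type included, therefore lacked Ring1a, and all were grown without feeder cells on gelatin in serum and leukemia-inhibitory factor.

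The level given for each gene is the authors' mean normalized count over all 16 libraries. It carries no error, and differences between the 4 groups are not given because no value per library or per group was used here. Genes are therefore placed side by side without a test, and close neighbours in an order cannot be separated. In such a mean, fewer cells that transcribe a gene and less RNA per cell cannot be told apart. Depth per library is unknown.

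Histone lysine methyltransferases mostly carry a SET domain and use S-adenosylmethionine as the methyl donor. Lysine demethylases are either flavin-dependent amine oxidases or JmjC-domain oxygenases that need iron and 2-oxoglutarate. Zinc-dependent deacetylases (HDACs) work largely within corepressor complexes, sirtuins consume NAD, and protein arginine methyltransferases (PRMTs) methylate many proteins besides histones. Methylation of H3K4 and demethylation of H3K27 are known to counter Polycomb-mediated repression, whereas PRC2 itself methylates H3K27.

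Most of these enzyme genes were well represented in the nuclear RNA. Of the 59 members, 58 had a mean normalized count of at least 10, 54 (91.5%) of at least 100 and 35 (59.3%) of at least 1000. Among all genes, 57.6% reached 100 and 22.7% reached 1000. The median member had a level of 1333, with quartiles of 428 and 3082, against 192 for all genes. Ranked by percentile among all genes, members ran from 21.7 to 99.8 with a median of 82.0, and 50 lay above the 50th percentile and 19 above the 90th.

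**Figure D1:**
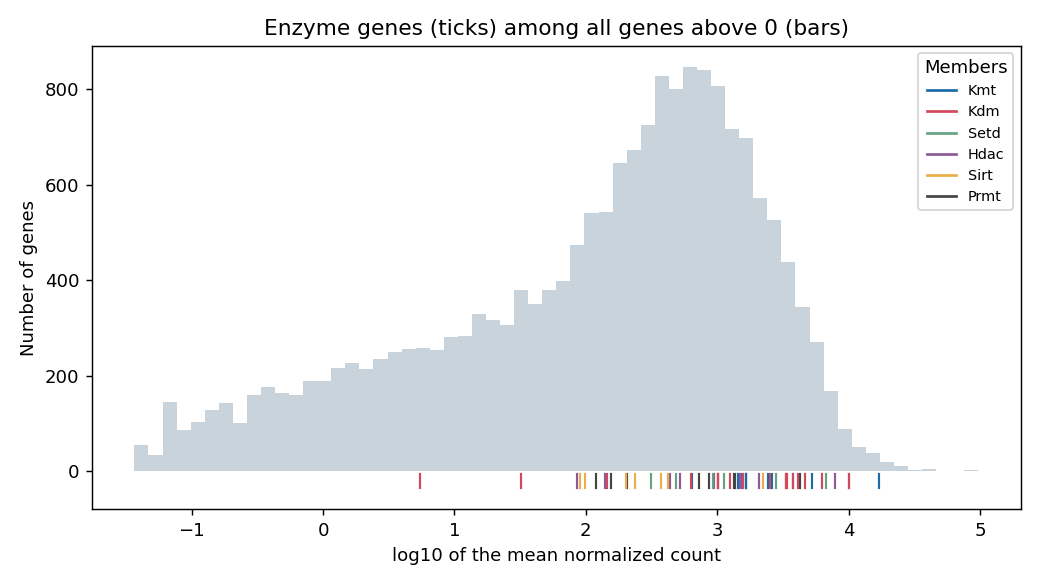
Histogram of the log10 mean normalized count of all genes above 0 (bars, number of genes), with a tick below the axis for each of the 59 enzyme genes, colored by the start of its symbol. All but 2 ticks, Kdm5d and Kdm4d, lie near or above a log10 level of 2, and the median member level of 1333 lies to the right of the all-gene median of 192.

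A few genes held much of the total. The 10 highest members contributed 55.8% of the members' summed level, and Kmt2c alone contributed 12.5%. In descending order of level these were Kmt2c (17012), Setd5 (10082), Kdm5b (10053), Hdac4 (7888), Setd2 (6726), Kdm4c (6241), Kmt2a (5232), Kdm5a (4663), Prmt3 (4253) and Kdm6a (4106). At the other end, Kdm5d (5.43), Kdm4d (32.1), Hdac10 (85.9), Sirt4 (89.97) and Sirt5 (98.7) stayed under 100. Above them came Prmt8 (120), Hdac11 (140), Kdm8 (144), Prmt2 (154) and Sirt6 (201).

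Longer genes tended to have higher levels, so the undivided levels above give the size of the signal, and an order between genes was drawn only from levels per length. Members were long, with a median gene span of 40.6 kb against 19.5 kb for all genes and a median transcript of 3.47 kb against 2.52 kb. Across the 59 members the rank correlation of the level was 0.67 with span and 0.64 with transcript length, a description across genes that share the same libraries. Over the 14485 genes with a level of at least 10 and a known span, the correlation with span was 0.41. Nuclear RNA contains introns, and whether intronic reads were counted is not given in the sources used here. Levels were therefore divided by gene span and, separately, by transcript length, and an order between genes is stated where both scales gave it.

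Members remained above the typical gene after division by length. Their median percentile among all genes was 76.6 per kb of span and 73.9 per kb of transcript. All genes include those with a level under 10, and the ranks per length were not repeated without them. The 2 scales ranked members only partly alike, with a rank correlation of 0.60, and 4 of the 10 highest members by level were in the top 10 on both of them. The low end was steadier, with 8 genes shared by the lowest 10 of all 3 orders. Setd5 and Kdm5b were high on either scale, with 132 and 138 per kb of span and 1493 and 1154 per kb of transcript, respectively. Hdac8 and Hdac9 were low by span, with 7.53 and 2.41 per kb, and high by transcript, with 859 and 654 per kb. The entry of Hdac9 covers only part of its gene, and over the span of that entry's transcript its level was 4.41 per kb.

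**Figure D2:**
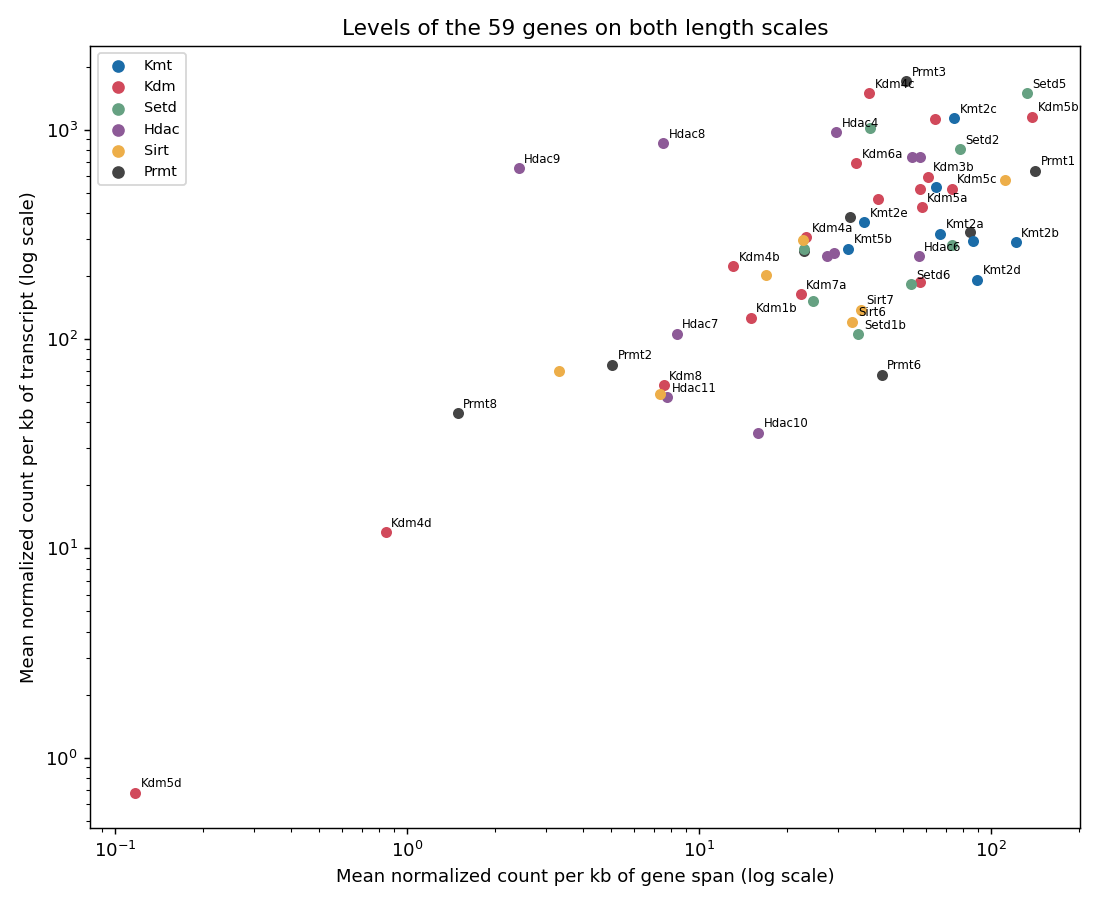
Mean normalized count per kb of gene span (x axis, log scale) against mean normalized count per kb of transcript (y axis, log scale) for each of the 59 genes (points, colored by the start of the symbol, named where space allowed). Kdm5d and Kdm4d lie at the lower left on both scales, whereas Hdac8 and Hdac9 lie high on the y axis and low on the x axis.

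The methyltransferases of H3K4, the mark of active promoters and enhancers, included the highest member by level, Kmt2c. All 8 had a level of at least 100 and 7 reached 1000. Kmt2c and Kmt2d, which methylate H3K4 mainly at enhancers, had levels of 17012 and 3810. Per kb of span they were close, at 74.9 and 89.8, but per kb of transcript Kmt2c was at 1137 and Kmt2d at 192, so no order is given for the pair. The promoter-associated enzymes Kmt2a and Kmt2b likewise changed order, with 67.1 and 121 per kb of span and 318 and 289 per kb of transcript. Setd1a and Setd1b, the catalytic subunits of the SET1 complexes, kept theirs. Setd1a was 2.09 times Setd1b per kb of span and 2.67 times per kb of transcript. Setd1a overlaps the annotated gene Gm49388 on the same strand, and Setd1b overlaps Gm26745 on the opposite strand. Kmt2e, a relative of Kmt2a with little known catalytic activity, had a level of 2615, and Setd7, which also methylates proteins other than histones, had a level of 1121.

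Setd2, which deposits H3K36 trimethylation behind elongating RNA polymerase II, stood at 78.1 per kb of span and 805 per kb of transcript, among the 10 highest members on both scales. Of the H4K20 enzymes, Kmt5a, which places the first methyl group, had a level of 1451, and Kmt5b and Kmt5c, which add further ones, had levels of 1653 and 645. Divided by length, the latter pair stood in the opposite order, with Kmt5c at 2.68 times Kmt5b per kb of span and 1.09 times per kb of transcript. The remaining Setd genes spread widely. Setd5 led at 10082, Setd3, which encodes the actin histidine methyltransferase, had 2802, and Setd4 and Setd6 had 489 and 312.

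**Figure D3:**
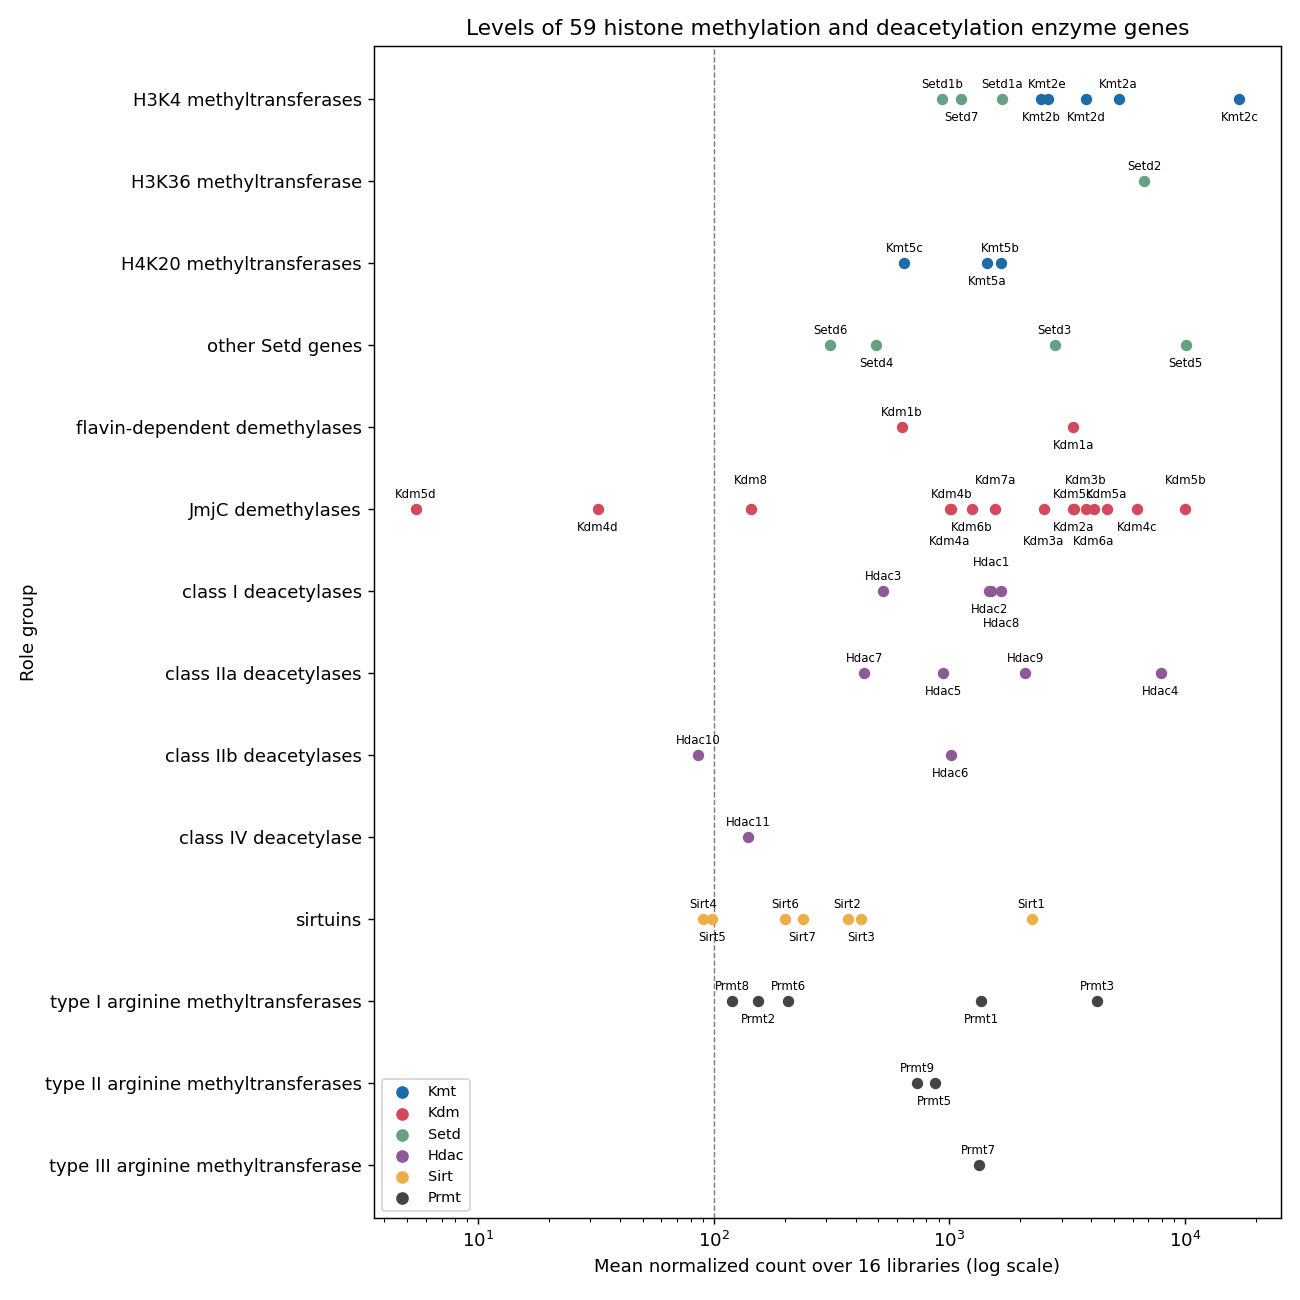
Mean normalized count over the 16 libraries (x axis, log scale) of the 59 genes by role group (y axis), 1 point per gene, colored by the start of the symbol; the dashed line marks 100. Points are not divided by length, and 5 genes lie left of the line, Kdm5d, Kdm4d, Hdac10, Sirt4 and Sirt5.

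Among the demethylases, the flavin-dependent Kdm1a (LSD1), which acts on mono- and dimethylated H3K4 with the CoREST corepressor, exceeded its paralogue Kdm1b. Levels were 3363 and 630, and the ratio was 4.28 per kb of span and 8.85 per kb of transcript. Both genes overlap annotated genes on the opposite strand, Luzp1 for Kdm1a and Tpmt and Dek for Kdm1b. The sources used here do not state whether reads were counted by strand, so reads of these neighbours may be included.

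The JmjC demethylases ran from the lowest member, at 5.43, to the third highest, Kdm5b, at 10053. Of 15 genes, 13 reached 100 and 12 reached 1000, and Kdm4d and Kdm5d were the 2 lowest members of all. The H3K9 demethylases Kdm3a and Kdm3b were nearly level, Kdm3b being 1.06 times Kdm3a per kb of span and 1.14 times per kb of transcript. Kdm2a, an H3K36 demethylase that binds unmethylated CpG DNA through a CXXC domain, had a level of 3380. Kdm7a and Kdm8 had 1564 and 144.

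In the Kdm4 set, which removes H3K9 methylation, the order was Kdm4c, Kdm4a, Kdm4b and Kdm4d on both length scales. Kdm4c had a level of 6241, Kdm4a 1006, Kdm4b 1019 and Kdm4d 32.1. Kdm4c exceeded Kdm4d 45.2 times per kb of span and 125 times per kb of transcript. Kdm4d, unlike the others, has just 2 exons in the annotated transcript. Kdm4c had 2 entries whose levels were 6241.4 and 6240.9, and their sum was not taken as the level of the gene.

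The Kdm5 set, the H3K4 trimethyl demethylases, held both one of the highest members and the lowest. Kdm5b had a level of 10053, Kdm5a 4663, Kdm5c 3365 and Kdm5d 5.43. On both length scales the order was Kdm5b, Kdm5c, Kdm5a and Kdm5d, and Kdm5b was 2.39 times Kdm5a per kb of span and 2.71 times per kb of transcript. Kdm5c was only 1.27 times Kdm5a per kb of span and 1.22 times per kb of transcript. Kdm5a also overlaps Ccdc77 on the opposite strand. Kdm5c lies on the X chromosome and Kdm5d, its closest relative, on the Y chromosome. Kdm5c was 624 times Kdm5d per kb of span and 766 times per kb of transcript.

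Other Y-linked genes were then listed beside Kdm5d, a list chosen after its value was seen. Uty, the relative of Kdm6a, had a level of 121, Ddx3y of 25.2, Usp9y of 21.9, Eif2s3y of 6.46 and Sry of 0.187. The X-linked partners had levels of 4106 for Kdm6a, 7753 for Ddx3x, 14121 for Usp9x and 785 for Eif2s3x. Per kb of span the Y-linked genes ran from 0.117 to 0.972 and the X-linked partners, Kdm5c included, from 32.8 to 575, and per kb of transcript from 0.158 to 23.3 and from 215 to 1652. The mean over 16 libraries does not show how these levels were spread over the groups.

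The start-site regions of Kdm5b, the highest Kdm gene by level, Kdm5c, and Kdm4d, the lowest but for Kdm5d, are shown to let their CpG content be compared, because Polycomb complexes in ESCs occupy CpG-rich promoters. The bases before the start are from RefSeq on GRCm38.p6, the same assembly as mm10, and are written 5′ to 3′ on the gene's own strand with each CG in capitals. Bases inside the annotated gene were left out. The 3 genes were picked after their levels were seen.
Kdm5b, chr1:134559928-134560177, plus strand: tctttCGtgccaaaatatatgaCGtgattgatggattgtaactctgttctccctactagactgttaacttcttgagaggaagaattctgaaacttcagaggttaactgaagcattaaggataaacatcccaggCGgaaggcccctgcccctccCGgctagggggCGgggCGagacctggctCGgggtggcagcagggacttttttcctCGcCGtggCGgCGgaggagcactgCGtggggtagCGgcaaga
Kdm5c, chrX:152232977-152233197, plus strand: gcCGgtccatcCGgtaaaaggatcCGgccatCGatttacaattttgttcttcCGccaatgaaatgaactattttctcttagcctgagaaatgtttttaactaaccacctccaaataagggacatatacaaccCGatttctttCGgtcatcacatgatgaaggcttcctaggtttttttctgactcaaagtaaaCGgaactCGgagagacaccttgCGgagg
Kdm4d, chr9:14500523-14500732, minus strand: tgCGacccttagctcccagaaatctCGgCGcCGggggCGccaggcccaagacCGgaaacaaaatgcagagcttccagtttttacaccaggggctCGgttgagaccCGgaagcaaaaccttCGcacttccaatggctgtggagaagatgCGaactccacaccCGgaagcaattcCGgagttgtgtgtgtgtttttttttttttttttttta

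These stretches held 13 CG in 250 bases for Kdm5b, 10 in 221 bases for Kdm5c and 12 in 210 bases for Kdm4d. In the full window of 300 bases around the start, the observed-to-expected CpG ratio was 0.781 for Kdm5b, 0.796 for Kdm5c and 0.818 for Kdm4d, and it was 1.51 for Kdm5d. The window of Kdm5d held 15 CG at a GC content of 36.7%. Those of Kdm5b, Kdm5c and Kdm4d held 17, 13 and 17 CG at 54.7%, 47% and 52.7%. Over all 32851 such windows, 35.8% had a ratio of at least 0.6. The ratios of Kdm4d, at a level of 32.1, and Kdm5b, at 10053, were thus close, but these genes were picked after their levels were seen. The matched window of Kdm4c, at a level of 6241, held 0 CG. Whether CpG content goes with level was not tested. Windows could be matched to 46 members (78.0%), under the 80% needed for a statement over the members, so no share of CpG-rich members is given.

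The Kdm6 pair removes H3K27 trimethylation, the product of PRC2. Kdm6a had a level of 4106 and Kdm6b 1249. Their order depended on the length scale, Kdm6b being 1.66 times Kdm6a per kb of span and 0.271 times per kb of transcript. Kdm6b also overlaps Kdm6bos on the opposite strand.

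The class I deacetylases, the main nuclear HDACs, all had a level of at least 100, and 3 of 4 reached 1000. Hdac1 and Hdac2, which share the Sin3, NuRD and CoREST complexes, had levels of 1510 and 1476, and their ratio was 1.06 per kb of span and 1.01 per kb of transcript. Hdac3, the catalytic subunit of the NCoR and SMRT complexes, had a level of 524 and Hdac8, a cohesin deacetylase, of 1663. Hdac3 was 29.0 per kb of span and 258 per kb of transcript, below Hdac1 and Hdac2 on both.

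Class IIa deacetylases, which shuttle between nucleus and cytoplasm and have weak catalytic activity, differed more among themselves. Hdac4 had a level of 7888, Hdac9 of 2097, Hdac5 of 942 and Hdac7 of 435. Hdac4 was the highest of the 4 on both length scales, but only 1.08 times Hdac5 per kb of span, against 3.92 times per kb of transcript. Hdac5 exceeded Hdac7 on both scales, by 3.26 and 2.35 times. Hdac4 was 12.3 times Hdac9 per kb of gene span, 7.12 times over the spans of the entries' own transcripts and 1.49 times per kb of transcript. The place of Hdac9 against Hdac5 and Hdac7 depended on the scale. Its gene spans 870 kb, and its 2 entries had levels of 2097 for a transcript that covers 476 kb and 299 for one that covers 157 kb, although the latter transcript is the longer, at 4.41 kb against 3.20 kb. Pairs of entries of 1 gene were then compared where both entries had a level of at least 100 and a matched transcript. Across 1016 such pairs, some sharing an entry, the log2 ratio of levels had a rank correlation of 0.56 with the ratio of spans. With the ratio of transcript lengths it was 0.24. Both correlations were computed after the Hdac9 entries were seen, with the entries of each gene sorted by level before pairing. The entries of Hdac7 had levels of 312, 434.8 and 435.0 at spans of 22.2, 38.8 and 51.6 kb. Those of Kdm4c had 6240.9 and 6241.4 at 153.9 and 163.4 kb. Whether levels follow the span was not tested.

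Of the remaining deacetylases, Hdac6, a cytoplasmic tubulin deacetylase, had a level of 1014. Hdac10, a polyamine deacetylase, had 85.9 and Hdac11, the only class IV member, 140. Hdac10 and Hdac11 were below Hdac6 on both length scales, with 15.9 and 7.75 per kb of span and 35.6 and 52.7 per kb of transcript, against 56.5 and 249 for Hdac6.

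Sirtuins had medians below those of all members. Their median level was 238 and their median per kb of span 22.6, against 1333 and 35.9 over all members, and only Sirt1 of the 7 reached 1000. Sirt1, the nuclear NAD-dependent deacetylase, had a level of 2237, 112 per kb of span and 573 per kb of transcript, the highest sirtuin on each scale. The mitochondrial Sirt3, Sirt4 and Sirt5 had levels of 422, 89.97 and 98.7. Sirt3 exceeded Sirt4 3.08 times and Sirt5 6.83 times per kb of span, and 5.44 and 4.22 times per kb of transcript. Over the spans of the entries' own transcripts the ratio of Sirt3 to Sirt4 was 1.62. Sirt3 also overlaps Ric8a and Psmd13 on the opposite strand. Sirt2, mainly cytoplasmic, had a level of 370, Sirt6, a chromatin-bound deacetylase, of 201 and the nucleolar Sirt7 of 238.

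Arginine methyltransferases ran from among the 10 highest to among the 10 lowest members. Prmt3, which methylates a ribosomal protein, had a level of 4253, and Prmt1, the main source of asymmetric dimethylarginine, had 1369. Prmt1 was first of all members per kb of span, at 142, and Prmt3 was first per kb of transcript, at 1697. Prmt8, a close relative of Prmt1 known from brain, had a level of 120. Prmt1 was 94.8 times Prmt8 per kb of span and 14.4 times per kb of transcript. Prmt2 and Prmt6 had levels of 154 and 207, and the entry of Prmt6 is annotated as a non-coding RefSeq transcript. Of the symmetric enzymes, Prmt5 had a level of 868 and Prmt9 of 730, with Prmt5 higher per kb of span, at 84.4 against 22.9, and per kb of transcript, at 323 against 263. Prmt7, which makes monomethylarginine, had 1333.

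Across 13 sets of related genes, 30 pairs could be compared. Pairs within the larger sets share genes, and any difference counted as an order, however small. The order was the same on both length scales in 24 pairs and turned in 6, namely Hdac5 and Hdac9, Hdac7 and Hdac9, Kdm6b and Kdm6a, Kmt2b and Kmt2a, Kmt2d and Kmt2c, and Sirt4 and Sirt5. In 15 pairs a gene exceeded its relative at least 2 times on both scales, and in 14, without Sirt3 and Sirt4, when the span of the entry's own transcript was used. The 15 include every pair with Kdm5d or Kdm4d, the 2 lowest members, at levels of 5.43 and 32.1. The pairs nearest to equal on both were Hdac1 with Hdac2 and Kdm3b with Kdm3a.

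**Figure D4:**
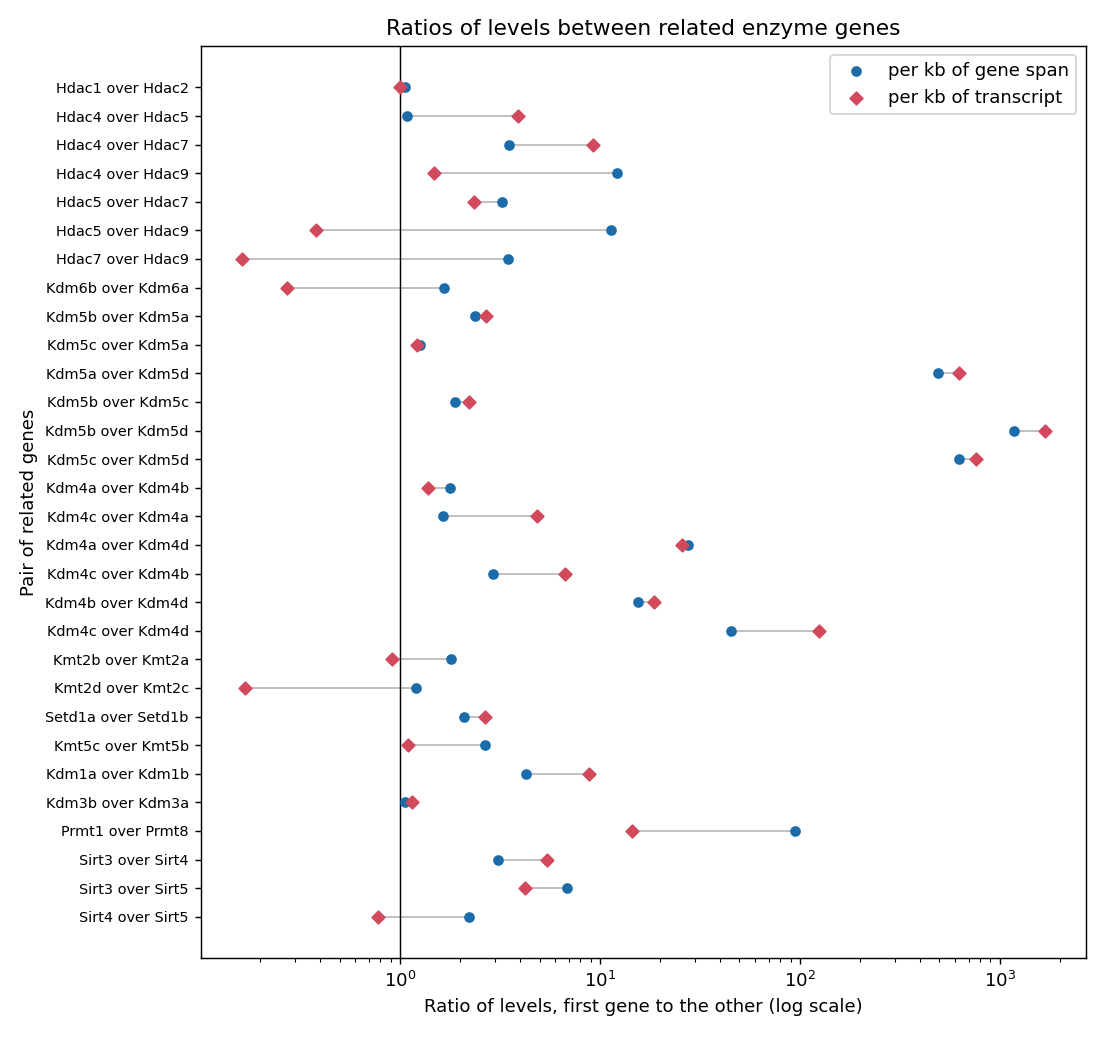
Ratio of the levels of the first gene to the other (x axis, log scale) for 30 pairs of related genes (y axis), per kb of gene span (circles) and per kb of transcript (diamonds); the vertical line marks equal levels. The 6 pairs with a diamond left of the line are those whose order turned, and the pairs with Kdm5d lie farthest to the right, at 493 to 1177 per kb of span.

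Enzymes of histone methylation with other symbols, and subunits that work with the members, were also represented. All 19 other enzymes had a level of at least 100, from 121 for Uty to 18216 for Smyd3, and 13 reached 1000. The PRC2 methyltransferase genes Ezh2 and Ezh1 had levels of 4088 and 813. All 18 partner subunits reached 100, from 345 for Cxxc1, a SET1 complex subunit, to 13637 for Ncor1, the corepressor that binds Hdac3, and 13 reached 1000. Wdr77, the partner of Prmt5, had 2409, and the CoREST scaffolds Rcor1 and Rcor2, partners of Kdm1a, had 2033 and 511. These levels are not divided by length. The order of Rcor1 and Rcor2 turned between the scales, with 26.6 and 65.3 per kb of span and 747 and 181 per kb of transcript.

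Markers of ESCs had high levels in the mean over all libraries, which does not show their levels in each group. All 7 ESC markers found had levels of at least 1000, from 1384 for Pou5f1 to 5687 for Esrrb. Of 7 fibroblast or feeder markers 1 reached 100, Thy1 at 128, Col1a2 and Col1a1 were at 70.3 and 51.5, and the other 4 lay between 0.283 for Lum and 1.36 for Postn. Neuron markers ran from 40.3 for Snap25 to 330 for Rbfox3, with Syt1 at 219, and the blood marker Ptprc was at 2.86. Reads that members share with other genes were not resolved here. Overlaps were sought only with annotated protein-coding and long non-coding genes. Of the members, 24 overlap such a gene on the opposite strand, 3 on the same strand (Hdac9, Setd1a and Sirt7) and 32 overlap none. The share over all genes is not given, and overlaps are named above for some of these members only.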

How the data were processed

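Nuclear, rRNA-depleted RNA from 16 ESC libraries was sequenced as strand-marked paired-end reads. The authors removed rRNA reads with Bowtie2, aligned to mm10 with STAR, removed PCR duplicates and compared groups with DESeq2 on a nonredundant gene set; tool versions and strand or intron counting are not given in the sources used here. The deposited signal used is the mean normalized count per entry over all libraries, scaled by the authors and identical in the 3 tables. The other columns hold the authors' own comparisons of each null group with wild type (fold changes, standard errors, statistics, p-values) and were not used, so no test was made.

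Of 20633 entries, 20560 were given a symbol, 20450 from RefSeq and 110 from GENCODE, and 897 had a mean of 0. Spans are RefSeq gene spans on GRCm38 and transcripts are from GENCODE. Promoter windows, 250 bases before to 50 after a start, were matched within 500 bases of the entry's transcript start, a distance set after the data were seen. Entries for Setdb1 and Setdb2 were not analysed here. Members and lists were chosen with earlier results of these data known. Genes named were the highest and lowest of each role group, all listed relatives and the 10 highest and 10 lowest members; small groups could be named whole, and genes named beyond these were picked after their values were seen. Alternatives covered the entry kept, the thresholds, the background, the length scale and the promoter match. Python 3.11.15, pandas 2.3.3 and scipy 1.17.1 were used, and the selection of entries and the percentiles were tested on simulated data.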

Additional observations from a re-analysis of the deposited data

How the results depend on the processing

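The share of members above a threshold and their place among genes moved with the settings, as follows. Raising the minimum from 100 to 1000 left 35 members in place of 54, and lowering it to 10 gave 58. Ranking against genes with a level of at least 10 lowered the median percentile from 82.0 to 76.0, and ranking against all entries gave 81.7. Keeping the lowest entry of a gene gave a median level of 1249 in place of 1333, and summing entries left the median at 1333, while Hdac9, at 2097, was 299 by its lowest entry and 2396 by the sum, and Hdac7, at 435, was 312 and 1182. Of 30 pairs of related genes, 24 kept the order of the level per kb of span when divided by transcript length, 21 with no division and 30 with the span of the entry's own transcript, a setting chosen after seeing the data that lowered the ratio of Sirt3 to Sirt4 from 3.08 to 1.62 and that of Hdac4 to Hdac9 from 12.3 to 7.12. Without the limit on distance, also chosen after seeing the data, 48 members had a promoter window in place of 46. The planned count of CpG-rich promoters at 2 ratios was not run because too few members had a window. No paired analysis was possible because each entry has a single mean over all libraries, and for the same reason no library could be left out. Differences between groups, and errors of the levels, could not be estimated from such a mean.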
